A study of Mus musculus with 2 samples.

Results

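The mitochondrial genome of the mouse encodes 13 proteins. Transcripts of 10 of these genes are described here, namely mt-Nd1, mt-Nd2, mt-Nd3, mt-Nd4 and mt-Nd5 (complex I), mt-Cytb (complex III), mt-Co1, mt-Co2 and mt-Co3 (complex IV) and mt-Atp6 (complex V). They were chosen by name, and they are 10 of the 27998 genes in the deposited matrices. Single-cell RNA sequencing was done on jejunal crypts of 2 male mice, 12 months of age, in which the miR-375 gene was knocked out in every tissue (375KO). The knockout was made by CRISPR/Cas9, and the labels give the strain as C57BL6/2J in one field and as B6 albino in another. Crypts were dissociated with dispase, and each mouse gave 1 droplet library, called replicate 1 and replicate 2. Wild-type cells were left aside, and all comparisons are between the 10 cell types that the authors named.

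Mitochondria keep a small circular genome whose protein genes all encode subunits of the respiratory chain or of ATP synthase. The remaining subunits are encoded in the nucleus, made in the cytosol and imported, so each of these complexes except complex II is built from the products of both genomes. The mitochondrial genes are copied as long transcripts from each strand, cut apart largely at the tRNAs between them and polyadenylated, which is why a kit that primes on poly(A) tails captures them. In the small intestine, absorptive enterocytes are known for high mitochondrial content, and Paneth cells are secretory cells of the crypt base that make antimicrobial peptides.

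Each member is 1 exon on the plus strand of chrM in the mm10 build (GENCODE M21 annotation). The annotated ends of 6 members are shown because the kit tags the polyadenylated end, and because they differ in how the reading frame closes. Whether each transcript is polyadenylated at the annotated end was not examined. The last 30 bases of each gene are given 5′ to 3′, and the capitals mark the stop codon, or the single T of one that the annotated gene leaves incomplete.
mt-Nd1: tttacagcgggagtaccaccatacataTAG
mt-Nd4: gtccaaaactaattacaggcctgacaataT
mt-Cytb: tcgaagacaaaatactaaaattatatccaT
mt-Co1: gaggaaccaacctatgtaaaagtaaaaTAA
mt-Co3: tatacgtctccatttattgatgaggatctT
mt-Atp6: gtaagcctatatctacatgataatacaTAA
These ends lie at chrM:3678-3707 (mt-Nd1), chrM:11515-11544 (mt-Nd4), chrM:15259-15288 (mt-Cytb), chrM:6843-6872 (mt-Co1), chrM:9361-9390 (mt-Co3) and chrM:8578-8607 (mt-Atp6). In mt-Nd4, mt-Cytb and mt-Co3 the gene stops after the T, and the tail supplies the missing letters of the stop codon. mt-Atp6 shares its last base with the start of mt-Co3 and 43 bases with mt-Atp8, and mt-Nd4 shares 7 bases with mt-Nd4l. A read within shared bases matches both genes, and how such reads were counted was not examined. mt-Nd5 shares 14 bases with mt-Nd6, which is on the opposite strand.

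Nuclear pseudogenes of 95% or higher identity over at least 100 bases were found in the annotation for 8 of the 10 members. Of these pseudogenes only Gm4076, a copy of part of mt-Nd5, was in the matrices, with 7 and 3 UMIs in replicate 1 and replicate 2. A UMI (unique molecular identifier) stands for 1 captured RNA molecule.

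The authors kept 2082 cells of replicate 1 (44017234 UMIs) and 1193 cells of replicate 2 (22163354 UMIs), and the libraries shared 0 barcodes. A kept cell had at least 1500 detected genes and at most 25% mitochondrial UMIs, so levels above that limit could not be seen in the comparisons. Cells within 5 points under the limit numbered 131 and 2. Of 52 cell type markers, 51 were highest in their own type in both mice. The exception was Atoh1, listed for secretory progenitors, which was highest in goblet cells. Goblet progenitors had no marker list of their own, so that name was not checked in this way. Because the types were named from the expression of the same cells, the tests below describe how the named classes differ.

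The 10 members together took 10.3% of all UMIs of the kept cells in replicate 1 and 4.83% in replicate 2. Enterocytes held the highest share and Paneth cells the lowest, in both mice. In enterocytes the members took 13.7% and 7.60% of UMIs (10.6% ± 4.31, SD, n = 2), and in stem cells 10.9% and 6.25% (8.59% ± 3.31, SD, n = 2). Secretory progenitors were at 10.4% and 5.88%, and transit-amplifying (TA) cells, the dividing daughters of stem cells, at 9.74% and 5.86%. The next 2 types by mean were goblet progenitors with 8.91% and 4.96%, and tuft cells with 8.47% and 5.29%. Enteroendocrine cells (EEC) had 6.89% and 3.91%, and intraepithelial lymphocytes (IEL), the 1 type that is not epithelial, had 7.64% and 2.91%. Goblet cells, the mucus-secreting type, had 6.14% and 3.40%.

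In Paneth cells the members took 0.143% of UMIs in replicate 1 (exact binomial 95% interval 0.139 to 0.147) and 0.270% in replicate 2 (0.265 to 0.275), or 0.207% ± 0.0899 (SD, n = 2). Such intervals cover counting error only. When types are put in order of their mean, goblet and Paneth cells are the only neighbours whose values did not overlap between mice. The first 4 places, enterocyte, stem cell, secretory progenitor and TA cell, were held by the same types in each mouse taken alone.

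**Figure D1:**
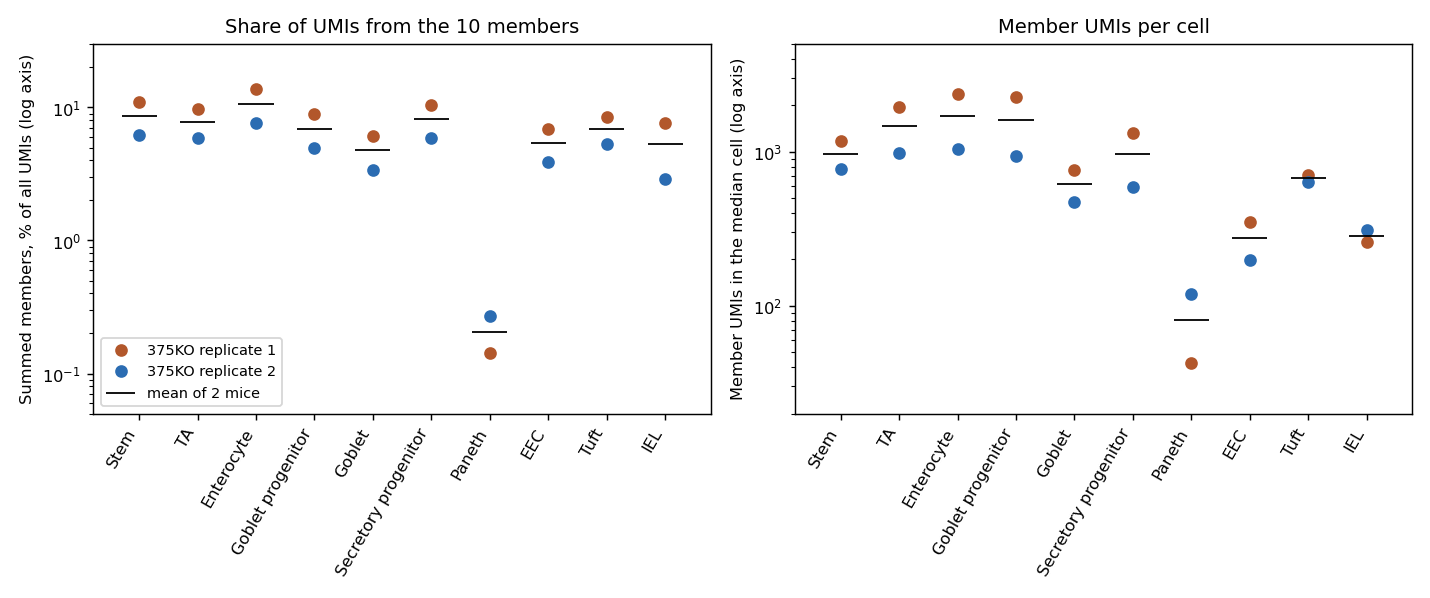
Left, the share of all UMIs that came from the 10 members, and right, the member UMIs of the median cell, by cell type on log axes. Points are the 2 375KO mice and lines their mean. The share lies between 2.91% and 13.7% in 9 types and at 0.143% and 0.270% in Paneth cells.

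Paneth cells also had the fewest member UMIs in absolute number, although their libraries per cell were the deepest. The median Paneth cell had 42.5 member UMIs of 44683.5 UMIs in replicate 1 and 119.5 of 80820 in replicate 2. The median enterocyte had 2373 of 16975 UMIs and 1047 of 13405 UMIs, and the median stem cell 1173 of 12282 and 769 of 12559. In Paneth cells 10 genes took 82.6% and 81.9% of all UMIs, and 0 of those 10 were members. In the other types the 10 highest genes took 8.62% to 25.7% of UMIs and 1 to 6 of them were members.

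Single cells spread widely within each type. Among enterocytes of replicate 1 the member share ran from 0.801% to 24.8% with a median of 13.2%, and in those of replicate 2 from 0% to 24.7% with a median of 7.58%. In Paneth cells the highest single cell reached 0.883% and 1.26%. Some cells of other types were as low, and 5 kept cells (stem, TA or enterocyte) had 0 member UMIs. Enterocytes of replicate 1 pressed most on the filter, with 99 of 931 cells (10.6%) over 20%. With only the cells at or below 15% mitochondrial UMIs, the summed share of those enterocytes was 11.6% and that of replicate 2 was 7.33%, still above the 9.65% and 6.16% of stem cells.

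**Figure D2:**
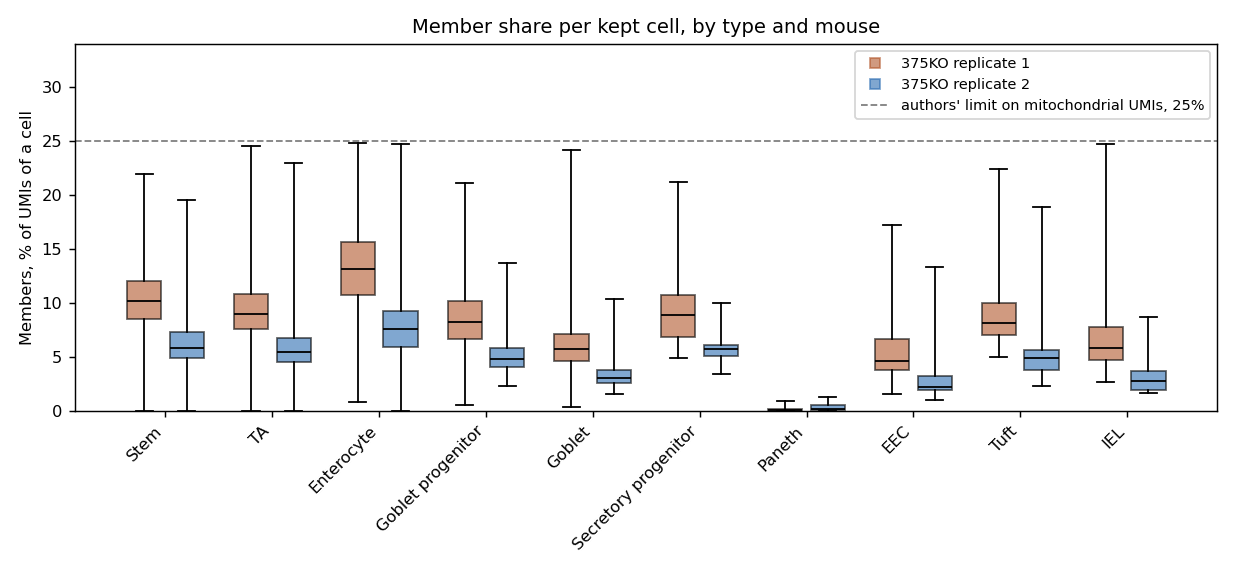
Share of a cell's UMIs from the 10 members (percent, linear axis) by type and mouse. Boxes give the quartiles and median, whiskers the lowest and highest cell, and the dashed line the 25% limit of the authors. Paneth cells stay at or below 1.26% while enterocytes reach 24.8%.

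Replicate 1 had the higher summed share in 9 of 10 types, by 1.60 times in tuft cells to 2.62 times in IEL. The IEL values rest on 50 and 18 cells, with a median of 4109.5 and 10225.5 UMIs per cell. EEC had 54 and 20 cells, and secretory progenitors 31 and 19. In Paneth cells replicate 2 was higher, with a ratio of 0.529. The gap differed from member to member. Levels are given as CPM, the UMIs of a gene per 1000000 UMIs of the same cells. Over all kept cells, mt-Nd2, a core subunit of complex I, had 4566 CPM in replicate 1 and 1293 in replicate 2. mt-Nd1, another core subunit, had 5430.2 and 4039.6. In stem, goblet, secretory progenitor and tuft cells mt-Nd1 was level with or higher in replicate 2, with ratios of replicate 1 to replicate 2 of 0.895 to 0.998, while the other 9 members were higher in replicate 1. With 1 library per mouse, mouse and library cannot be told apart.

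The make-up of the member UMIs was similar over the types other than Paneth cells. mt-Atp6, a subunit of the proton channel of ATP synthase, gave 21.8% of member UMIs in replicate 1 and 20.6% in replicate 2. mt-Co3 and mt-Co2 of cytochrome c oxidase gave 21% and 19.8%, and 15.6% and 11.9%. mt-Co1, which holds the site of oxygen reduction, gave 14.3% and 18.9%. mt-Cytb, the quinol-oxidising subunit of complex III, gave 9.31% and 10.2%. The complex I members were lower, with mt-Nd4 at 6.10% and 5.83%, mt-Nd1 at 5.28% and 8.37%, mt-Nd2 at 4.44% and 2.68%, mt-Nd3 at 1.45% and 1.19% and mt-Nd5 at 0.708% and 0.469%.

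Paneth cells departed from this make-up. mt-Co1 gave 36.6% of their member UMIs in replicate 1 and 30.2% in replicate 2, whereas it gave 12.5% to 21.5% over the other types and mice. mt-Co3 gave 3.14% and 16.3% in Paneth cells and 19.1% to 21.5% elsewhere. mt-Nd4 gave 14.9% and 4.52% in Paneth cells against 5.44% to 6.51% elsewhere. The shift of mt-Co1 was in the same direction in both mice, and that of mt-Nd4 was not. The Paneth sums rest on 5025 and 11789 member UMIs, of which mt-Co3 had 158 and 1920.

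**Figure D3:**
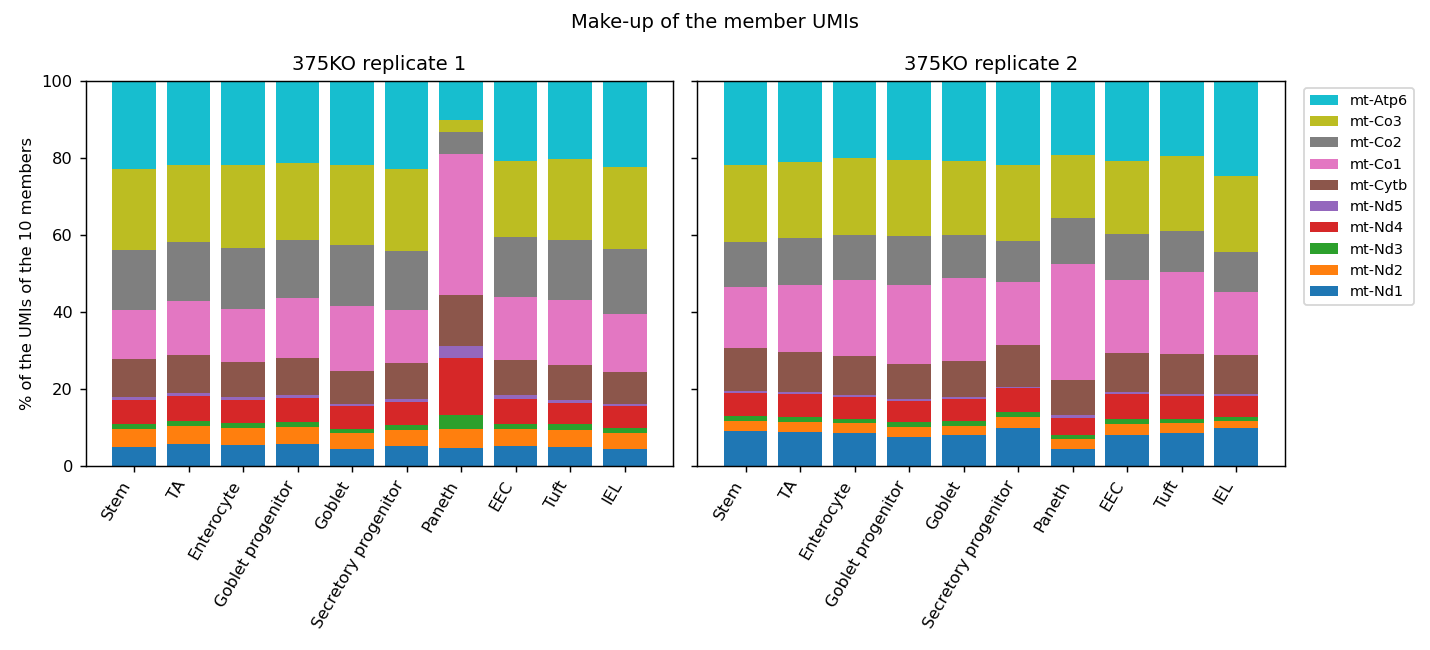
Share of each member among the UMIs of the 10 members (percent, stacked to 100) by cell type, with replicate 1 on the left and replicate 2 on the right. The stacks are alike over 9 types, and in Paneth cells mt-Co1 takes 36.6% and 30.2%.

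Levels of different genes were compared per kilobase of gene (CPM per kb), with the limit that the kit tags 1 end of a transcript. Reads past the annotated end of a gene were not looked for. By the mean of both mice mt-Atp6 was first with 23819 ± 13011 CPM per kb (SD, n = 2), then mt-Co3 with 19908, mt-Co2 with 15930.1, mt-Co1 with 7702, mt-Cytb with 6343, mt-Nd1 with 4948, mt-Nd4 with 3297, mt-Nd3 with 2977, mt-Nd2 with 2822 and mt-Nd5 with 262. Each mouse alone gave the same order for the first 7, from mt-Atp6 (33019 and 14619 CPM per kb) to mt-Nd4 (4553 and 2042). mt-Nd3 (4300 and 1654) and mt-Nd2 (4399 and 1246) changed places between mice, and mt-Nd5 was last in both (400 and 124). The ranges of neighbours overlapped between mice for all but mt-Nd5. The order rests on dividing by gene length. As plain CPM, mt-Nd2 (4566 and 1293) was above mt-Nd3 (1496 and 576) in both mice, and mt-Co2 (16036 and 5757) was above mt-Co1 (14682 and 9118) in replicate 1 and below it in replicate 2. Of the 3 mitochondrial protein genes that are not members, mt-Nd4l had 827, mt-Atp8 had 376 and mt-Nd6, the only one on the minus strand, had 29 CPM per kb. Because mt-Nd4l and mt-Atp8 overlap mt-Nd4 and mt-Atp6 on the same strand and 1 end is tagged, their values need not measure separate transcripts.

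To compare types, UMIs were summed per mouse and type (20 sums) and fitted for 11402 genes with the edgeR quasi-likelihood test, with mouse as a block and TMM scaling, which sets the typical gene of each sum at the same level. A gene was called when its p-value, after Benjamini-Hochberg adjustment over these genes, was under 0.05. All 10 members passed the filter on low counts. Across all types 7 of 10 were called, where 78.7% of all genes were. mt-Co2, mt-Co3 and mt-Atp6 were not called (adjusted p = 0.280, 0.343 and 0.138). The count across the types was 10 with library size alone, without the filter on low counts and with Paneth cells left out, and 8 with the DESeq2 likelihood ratio test. The residual degrees of freedom were 9, from 2 mice. Without the mouse block the fit called 2 members across the types, 6 as higher in enterocytes and 6 as lower in Paneth cells. It called 0 in stem cells, TA cells, EEC, IEL or enterocytes against stem cells, so the calls in these 5 comparisons rest on the block. The share of all genes called without the block is not given here, so these counts show only what the block changed.

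Enterocytes had higher levels of the members than the mean of the other 9 types. mt-Nd1 was at 7163 and 6341 CPM in enterocytes, above each of the other 9 types in each mouse, whose values ran from 66.6 to 5531 in replicate 1 and from 116 to 5770.1 in replicate 2. Its log2 fold change was 1.32 (SE 0.15, adjusted p = 2.95e-08). In all, 8 of 10 members were higher and 0 lower, where 30.4% of all genes were higher. The median log2 fold change was 1.22 for the members and 0.05 for all genes tested. The largest was that of mt-Co3 at 1.33 (SE 0.59), which was not called (adjusted p = 0.0935), and the smallest was that of mt-Nd5 at 0.93 (SE 0.11, adjusted p = 1.70e-08). mt-Co2 was the other member not called (adjusted p = 0.0630). In each mouse alone all 10 members were above the mean of the other types. On the log2 scale the difference was 0.90 to 1.80 in replicate 1 and 0.96 to 1.11 in replicate 2. With Paneth cells left out, 10 of 10 were called as higher, where 35.9% of all genes were.

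Set against stem cells, the start of the same absorptive line, enterocytes had 4 members higher and 0 lower, where 25.9% of all genes were higher. The median log2 fold change was 0.56, against 0.07 for all genes. mt-Co1 was at 18979 and 14942 CPM in enterocytes and at 13713 and 9953 in stem cells, and its log2 fold change of 0.81 (SE 0.35) was the largest and was not called (adjusted p = 0.0842). mt-Cytb had the smallest at 0.44 (SE 0.28, adjusted p = 0.211). The called members were all of complex I, namely mt-Nd3 at 0.71 (adjusted p = 0.00189), mt-Nd1 at 0.58, mt-Nd4 at 0.55 and mt-Nd5 at 0.48. All 10 members were above stem cells in each mouse. This count depended on the scaling and on Paneth cells: 0 members were called with library size alone, where 18.2% of all genes were higher and their median moved to -0.21. With Paneth cells left out 10 were, where 30.1% of all genes were higher. With cells at or below 15% mitochondrial UMIs 1 was called.

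Stem cells had 5 members higher than the mean of the other types and 0 lower (median log2 fold change 0.61), where 14.6% of all genes were higher. mt-Cytb was at 10979 and 7021 CPM in stem cells and had the largest log2 fold change, 0.70 (SE 0.19, adjusted p = 0.0157). mt-Co1 had the smallest at 0.20 (SE 0.26, adjusted p = 0.713). The other called members were mt-Nd1, mt-Nd3, mt-Nd4 and mt-Nd5. With Paneth cells left out 8 were called, where 13.4% of all genes were higher, and the median was 0.41. In TA cells only mt-Nd1 was higher (log2 fold change 0.47, SE 0.16, adjusted p = 0.0300), where 18.8% of all genes were higher, and it was lost with Paneth cells left out (0 members called, 18.4% of all genes higher). mt-Co1 was the lowest member in TA cells, at 0.07 (adjusted p = 0.925).

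In Paneth cells 7 members were lower than the mean of the other types and 0 higher, where 9.31% of all genes were lower. The median log2 fold change was -1.55, against 0.00 for all genes. mt-Nd1, at 66.6 and 116 CPM, had the largest difference, -2.30 (SE 0.21, adjusted p = 1.86e-09), and mt-Nd5, at 42.7 and 17.4 CPM, the smallest, -0.69 (SE 0.15, adjusted p = 5.75e-04). The 3 complex IV members were not called (adjusted p from 0.0914 to 0.0964), and their mice were far apart. mt-Co3 was at 44.9 and 440.0 CPM, and its log2 difference from the mean of the other types was -5.60 in replicate 1 and -1.09 in replicate 2. All 10 members were below the mean of the other types in each mouse, but not below each type. In replicate 2 TMM-scaled mt-Co1 was at 6940 CPM in Paneth cells, 5282 in EEC and 3618 in IEL. There mt-Co2, mt-Nd2, mt-Nd3 and mt-Nd5 were also higher in Paneth cells than in IEL. mt-Nd4l and mt-Atp8 had log2 fold changes of 0.27 and 0.30 in Paneth cells and were not called (adjusted p = 0.277 and 0.439).

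The size of the Paneth difference depended on the scaling. TMM gave the Paneth sums factors of 0.151 and 0.117, against 0.919 to 1.54 for the other sums. With library size alone 10 of 10 members were lower, where 78.6% of all genes were, with a median log2 fold change of -4.83, while the median of all genes fell to -3.13. Relative to that median the members were still lower. Of all genes called in this contrast, 62.5% were higher in the main fit and 1.66% with library size alone. The corresponding shares were 66.5% and 89.4% for stem cells, 65.8% and 92.8% for TA cells, 61.6% and 62.1% for enterocytes, and 54.6% and 39.0% for enterocytes against stem cells.

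EEC and IEL, the hormone-secreting cells and the lymphocytes, lay on the lower side. In EEC 1 member, mt-Nd3, was lower (log2 fold change -0.45, SE 0.15, adjusted p = 0.0339), where 5.49% of all genes were lower. It was at 939 and 478 CPM in EEC. The median over the members was -0.44, from -0.50 for mt-Atp6 (adjusted p = 0.597) to -0.28 for mt-Nd5 (adjusted p = 0.196). In IEL 3 members were lower, mt-Nd3 at -0.81 (SE 0.16, adjusted p = 1.42e-04), mt-Nd4 at -0.58 and mt-Nd5 at -0.39, where 13.6% of all genes were lower. mt-Atp6 had the smallest difference in IEL, -0.27 (adjusted p = 0.768). mt-Co2, mt-Co3 and mt-Atp6 lay above the mean of the other types in replicate 1 and below it in replicate 2. The IEL mice thus did not agree for these members. With Paneth cells left out 9 members were lower in EEC, where 7.09% of all genes were, and 10 in IEL, where 17.7% were. With library size alone 0 were lower in either, where 0.386% and 7.73% of all genes were, and the median of all genes rose to 0.69 in EEC and 0.42 in IEL. The members' own log2 fold changes then turned above 0 for all 10 in EEC (0.13 to 0.34, median 0.18), and in IEL they ran from -0.34 to 0.22 (median 0.00), so the direction in both types depended on the scaling.

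**Figure D4:**
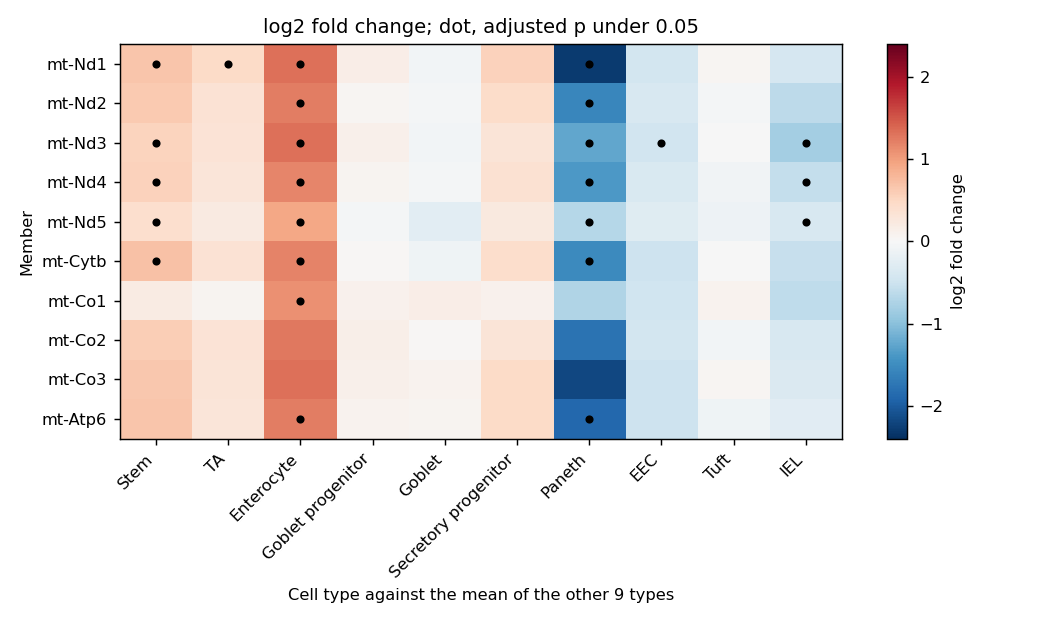
Log2 fold change of each member (rows) in each type against the mean of the other 9 types (columns), from edgeR with TMM scaling. Red is higher, blue lower, and a dot marks an adjusted p under 0.05. Enterocytes have 8 dots on red and Paneth cells 7 on blue.

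In 4 further contrasts the edgeR test called 0 members. These were goblet progenitors (median log2 fold change 0.09), goblet cells (-0.05), tuft cells (-0.03) and goblet cells against goblet progenitors (-0.10), and in each 0 members had an unadjusted p under 0.05. DESeq2 also called 0 in each. In goblet progenitors the range was -0.04 (mt-Nd5) to 0.15 (mt-Nd1), in goblet cells -0.25 (mt-Nd5) to 0.15 (mt-Co1), in tuft cells -0.13 (mt-Nd5) to 0.09 (mt-Co1), and between the goblet stages -0.20 (mt-Nd1) to 0.05 (mt-Co1). The shares of all genes called in either direction were 13.2%, 26.0%, 13.1% and 25.6%. Secretory progenitors also had 0 members called by edgeR and by DESeq2, where 3.67% of all genes were called. There, 3 members had an unadjusted p under 0.05 in edgeR, the median was 0.40, mt-Nd1 was at 0.56 (adjusted p = 0.0501) and mt-Co1 was lowest at 0.10.

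The nuclear encoded partners of the same complexes were read from lists. In enterocytes against the mean of the other types, 36 of 36 nuclear complex I genes tested were higher, where 30.4% of all genes were, as were 4 of 4 of complex II, 9 of 9 of complex III, 10 of 10 of complex IV and 14 of 15 of complex V. Their median log2 fold changes were 0.98, 1.37, 1.17, 1.17 and 1.15, beside 1.22 for the members and 0.05 for all genes. Against stem cells 30, 4, 8, 10 and 14 of them were higher and 0 lower, where 25.9% of all genes were higher. Named examples in that contrast are Ndufb10 of complex I (log2 fold change 1.10, SE 0.17, adjusted p = 2.65e-06), Sdhb, the iron-sulfur subunit of complex II (1.03), Uqcrfs1, the Rieske protein of complex III (1.003), Cox7a2 of complex IV (1.06) and Atp5o of complex V (1.01).

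In Paneth cells the nuclear genes were mostly lower too, but with medians nearer 0 than that of the members. Complex I had 20 of 36 lower and 1 higher (median -0.44), complex II 3 of 4 (-1.15), complex III 8 of 9 (-0.57), complex IV 10 of 10 (-0.81) and complex V 14 of 15 (-0.82), beside -1.55 for the members and 9.31% of all genes lower. The difference between the members and these lists was not tested. In IEL 28 of 36, 3 of 4, 9 of 9, 10 of 10 and 11 of 15 were lower, where 13.6% of all genes were, and in EEC 19, 1, 6, 10 and 13, where 5.49% were. All list counts are from the TMM-scaled fit, and the lists were not read with library size alone. For the members, the direction in EEC and IEL depended on that choice. Secretory progenitors had 0 nuclear genes called in any of the 5 lists, with medians of -0.06 to 0.11, beside 0.40 for the members. For TA cells the lists gave 19 of 36, 4 of 4, 7 of 9, 10 of 10 and 12 of 15 as higher. There 0 were lower, 18.8% of all genes were higher, and 1 of 10 members was. The list medians were 0.36 to 0.62, beside 0.32 for the members. For stem cells the counts were 15, 2, 6, 6 and 12, with 0 lower, where 14.6% of all genes were higher. Those medians were 0.30 to 0.44, beside 0.61 for the members, of which 5 were called.

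**Figure D5:**
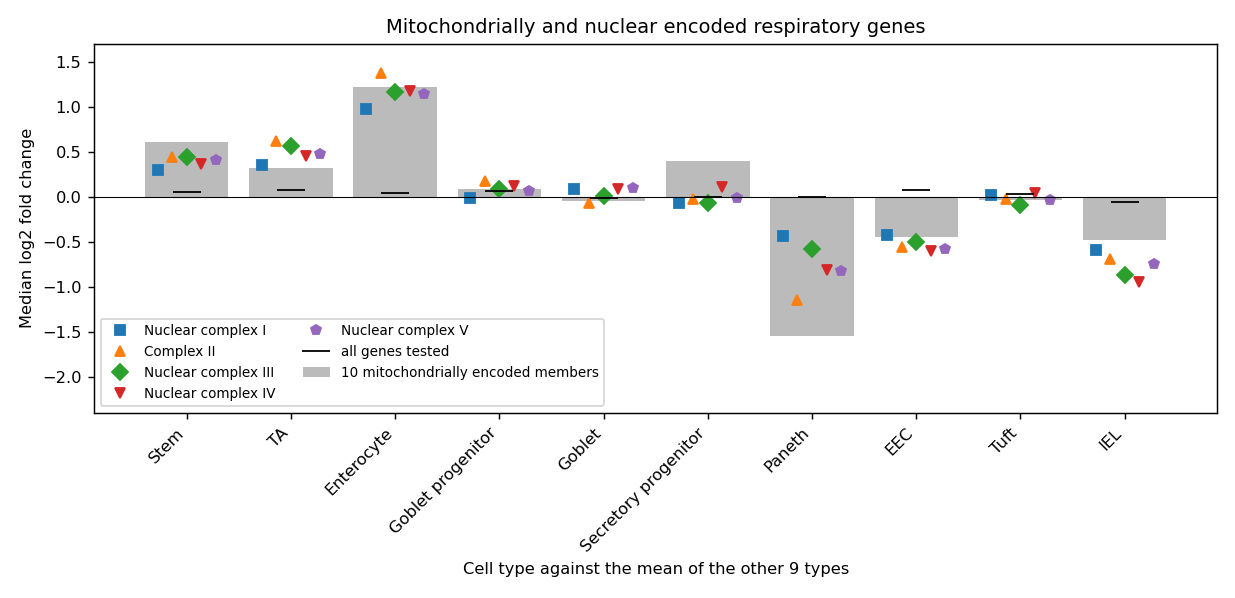
Median log2 fold change of the 10 members (grey bars), of the nuclear genes of each respiratory complex (symbols) and of all genes tested (black dashes), for each type against the mean of the other 9 types. In enterocytes the lists lie at 0.98 to 1.37 beside 1.22 for the members, and in Paneth cells at -1.15 to -0.44 beside -1.55.

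Genes that copy and process mitochondrial RNA were read in the same 2 enterocyte comparisons. Of 25 tested genes of mitochondrial transcription and RNA processing, 8 were lower and 2 were higher in enterocytes than in stem cells (median log2 fold change -0.53), where 21.5% of all genes were lower and 25.9% higher. Against the mean of the other types 3 were lower and 7 higher (median 0.30), where 18.9% of all genes were lower and 30.4% higher. The counts in this second comparison were near the shares of all genes. Against stem cells the largest changes called were those of Mterf2, a member of the mitochondrial termination factor family (2.05, SE 0.46, adjusted p = 3.81e-04), and 1110008L16Rik (-1.78, SE 0.22, adjusted p = 3.85e-08). Of 12 genes that maintain mitochondrial DNA, 8 were lower and 2 higher against stem cells (median -0.95), and 7 lower and 2 higher against the mean of the other types (median -0.51). Dna2, a nuclease and helicase that also acts in the nucleus, was lowest at -3.17 (adjusted p = 2.38e-08), and Polg2, the accessory subunit of the mitochondrial polymerase, was highest at 0.94 (adjusted p = 0.0214). In stem cells against the other types 10 of the 25 and 7 of the 12 were higher and 0 lower, where 14.6% of all genes were higher. TA cells were alike, with 12 of the 25 higher and 0 lower, and 7 of the 12 higher and 1 lower. There, 18.8% of all genes were higher.

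Of 8 regulators of mitochondrial genes, 2 were higher and 1 lower in enterocytes than in stem cells, where 25.9% and 21.5% of all genes were. Ppargc1a, a coactivator of mitochondrial biogenesis, was higher by 3.87 on the log2 scale (SE 0.34, adjusted p = 3.36e-11), and its relative Pprc1 was lower, at -2.23 (adjusted p = 7.20e-07). Immediate early and stress genes, which can respond to dissociation, were read beside these results. Of 10, 4 were higher in enterocytes than in stem cells, with Atf3 first (4.98, SE 1.26, adjusted p = 0.00858), and their sum was 904 and 485 CPM in enterocytes and 314 and 393 in stem cells. It was highest in goblet cells (3039 and 1754) and EEC (2659 and 2173), and in Paneth cells it was 166 and 305. With TMM scaling 6 of the 10 were higher and 0 lower in Paneth cells when set against the other types (median log2 fold change 1.79), where 15.5% of all genes were higher, so the place of Paneth cells depended on the scaling. In goblet cells 8 were higher and 0 lower (median 2.43), where 26.0% of all genes were called in either direction. In EEC the median was 1.58. The part of these stress genes in the member levels was not tested.

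The 5 nuclear genes whose log2 level across the 20 sums, centred within each mouse, was most like that of the members' sum were Atp5h (Pearson r = 0.930), Prap1 (0.924), Ndufc2 (0.922), Fh1 (0.921) and Scrn2 (0.917). Atp5h and Ndufc2 encode subunits of complex V and complex I, and Fh1 encodes fumarase of the citric acid cycle. The members themselves correlated with their sum at 0.885 to 0.989. With Paneth cells left out (18 sums) the first 5 were Uqcrh (0.954), Cox4i1 (0.950), Atp5j2 (0.933), 2010107E04Rik (0.933) and Exoc3l4 (0.930), of which Uqcrh, Cox4i1 and Atp5j2 encode subunits of complexes III, IV and V. The sums share libraries and scaling, so these values are a description. TMM-scaled Uqcrh was at 1944 and 2052 CPM in enterocytes, 1127 and 1346 in stem cells and 651 and 671 in EEC.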

How the data were processed

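The authors aligned reads to mm10 with Cell Ranger 3.0.1 and deposited, per library, a matrix of UMI counts per gene and barcode. Their processing notes name Seurat 3.2.1, and their methods name SoupX for free RNA without saying to which deposited file it was applied. The authors also deposited a count table of the kept cells, the mitochondrial percent of each cell and the cluster names. Cells they called doublets had been removed, and those calls and the sctransform values were not used. The annotation table has no barcodes, so its rows were matched to cells through the column order of the count table, and UMI totals and gene numbers were equal in 3275 of 3275 cells, as were mitochondrial UMIs to within 0.01. A further 2937 cell columns of other samples were not used.

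UMI counts were summed per mouse and type (at least 10 cells), filtered with filterByExpr, scaled with TMM and fitted with edgeR 4.0.16 (glmQLFit, robust, two-sided) in R 4.3.3, with type and mouse as terms. Mouse entered as a block because same-numbered sums come from the same animal. The correlation of their deviations ran from 0.114 to 0.654 (median 0.281). DESeq2 1.42.0 was an alternative. The reference for a type was the unweighted mean over the other types. Fold changes within 1 mouse were not tested and had a prior count of 2. On simulated counts for enterocytes against the other types (9747 genes), 148 of 200 genes changed 2-fold were called, with 7 false calls. The simulated sums had the same gene make-up apart from the changed genes, the same spread for every gene and no mouse effect. That check therefore cannot speak to the scaling of the Paneth sums or to the mouse block. Alternatives were the scaling, the filter on low counts, the mouse block, a limit of 15% mitochondrial UMIs, equal weight per cell, and leaving out lymphocytes, Paneth cells or a mouse. Leaving out Paneth cells and the DESeq2 likelihood ratio test were chosen after seeing the data. Intervals are exact (binomial) at 95% and cover counting error only. The genes named are all members for levels, the highest and lowest member in each contrast and the other called members, the largest called change of each list in enterocytes against stem cells, and the 5 nuclear genes most like the members' sum. The members and lists were chosen with earlier results of these data known.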

Additional observations from a re-analysis of the deposited data

Results flagged for a closer look

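The barcodes that the authors did not keep were outside the comparisons, and they carried member UMIs. In replicate 1 there were 5583 such barcodes, with a median of 1581 UMIs and a median member share of 70.7%, and 4094 of them (73.3%) were over 25% mitochondrial UMIs. In replicate 2 there were 58, with a median of 19374.5 UMIs and a median member share of 1.71%, and 1 was over 25%. The deposited matrices held 7665 and 1251 barcodes, and how each was filtered before deposit is not given in the sources used here, so these barcodes were not compared between mice. Next to the limit, the 131 kept cells of replicate 1 between 20% and 25% had a median member share of 22.1%, and the 74 barcodes with at least 1500 genes between 25% and 30% had one of 27.7%. Replicate 2 had 2 and 0 such barcodes.

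The ratio of replicate 1 to replicate 2 in the summed share was 0.529 in Paneth cells and 1.60 to 2.62 in the other 9 types. The mice thus stood in the opposite order in Paneth cells, and this difference was not tested, since each mouse gave 1 library. Within Paneth cells the ratio ran from 0.102 for mt-Co3 to 2.45 for mt-Nd5, and 3 of 10 members were higher in replicate 1.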

How the results depend on the processing

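Summed levels moved by less than 1 SD between mice with the 15% limit and with equal weight per cell. Shares within the members moved by more in 7 combinations of member and type with equal weight per cell, among them mt-Co1 in Paneth cells (46.9%). Counts of called members moved more. Where no share of all genes is given above for the same setting, a count shows only how the calls moved. It is then not a result about the members, since the calls of all genes moved with the setting too. Without the mouse block (no pairing of sums by animal) they were 0 in stem cells, TA cells, EEC, IEL and enterocytes against stem cells, and 2 across the types. With library size alone they were 7 in TA cells, 6 in goblet progenitors, 5 in secretory progenitors, 6 in tuft cells and 5 (lower) in goblet cells against goblet progenitors, and 0 in EEC, IEL and enterocytes against stem cells. With DESeq2 size factors in edgeR they were 1 in secretory progenitors and 0 in EEC, and the DESeq2 Wald test gave 0 in TA cells. Without a filter on low counts they were 2 in TA cells, 0 in EEC and 7 in IEL. With at most 15% mitochondrial UMIs they were 5 in TA cells, 0 in EEC, 6 in IEL and 1 in enterocytes against stem cells. Without lymphocytes EEC had 3. Without Paneth cells they were 8 in stem cells, 0 in TA cells, 9 in EEC, 1 in tuft cells, 10 in IEL and 10 in enterocytes against stem cells. The causes were not tested. Across the types they were 10 with library size alone, without the filter and without Paneth cells. They were 8 with the DESeq2 likelihood ratio test, 2 without the mouse block and 7 with the others. Of the 8 members called in enterocytes, mt-Atp6 was lost with DESeq2 size factors and at the 15% limit, and mt-Nd2 and mt-Nd5 without the mouse block. Of the 7 called in Paneth cells, mt-Nd2, mt-Nd3 and mt-Nd5 were lost without the block. The other alternatives lost none of these.

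Some log2 fold changes turned direction. With library size alone all 10 members did so in EEC (0.13 to 0.34), the called mt-Nd3 among them (0.17), as did 5 in IEL, the called mt-Nd5 among them (0.08). Among the highest and lowest member of each contrast, those that turned with library size alone were mt-Nd5 in goblet progenitors (0.41), EEC (0.34) and tuft cells (0.43), mt-Atp6 in EEC (0.13) and IEL (0.22), and mt-Co1 between the goblet stages (-0.45). Without the filter they were mt-Nd5 in goblet progenitors (0.0583) and mt-Co1 between the goblet stages (-0.0101), and at the 15% limit mt-Nd5 in goblet progenitors (0.0623). Without Paneth cells they were mt-Nd1 in goblet progenitors (-0.0699) and mt-Co1 in secretory progenitors (-0.0192). With either mouse left out each type has 1 sum, so those values carry no test.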
